A study of Mus musculus with 2 samples.

Results

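The cells described here are the Krt75 droplets of newborn mouse back skin, single-cell profiles rich in keratin 75, a type II keratin known from the companion layer of the hair follicle. Of 16453 droplets kept from both libraries, 98 held at least 10 Krt75 UMIs (unique molecular identifiers, one per captured transcript) per 10000 UMIs. From these, 3 were removed because the inner root sheath keratins Krt71, Krt25, Krt27 and Krt73 together made up 37.0 to 171 per 10000 (the limit was 20), and 0 because of the contractile genes Tagln, Acta2 and Olfml2b, so that no droplet formed a contractile Krt75 group. The remaining 95 droplets are called Krt75 cells below, 49 in the library of PADI4 WT mice and 46 in the library labelled PADI4 cKO. Because Krt75 and the 7 other genes named here chose the droplets, their levels are a description.

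The series held 1 single-cell library per genotype, prepared with 10x Genomics 3′ chemistry from back skin at postnatal day 1 (P1). In the cKO genotype, Padi4, which encodes an enzyme that converts arginine in proteins to citrulline, is deleted by a K14-Cre transgene in Padi4 fl/fl mice. The transgene acts in the Krt14-expressing basal epithelium and its descendants, and a tdTOMATO reporter marked those cells in mice of both genotypes. The epidermis was peeled off with dispase, the dermal fraction with its growing follicles was dissociated with collagenase and trypsin, and tdTOMATO-positive, DAPI-negative cells were sorted. The number and the sex of the animals in each library are not given in the sources used here. With 1 library per genotype, no difference between the libraries has a replicate check, cells are not replicates of a condition, and no test was made.

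The companion layer is a single sheet of flat cells between the outer and the inner root sheath of the follicle. Its cells are held to the inner root sheath by many desmosomes and travel upward with it, so the layer is thought to be the plane along which the growing hair and its sheaths slip past the outer root sheath. Keratins 75, 6, 16 and 17 are the filament proteins usually named for this layer, and follicular keratin 6 genes are also switched on in the upper follicle and in wounded skin.

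Krt75 (ENSMUSG00000022986) lies on the minus strand of chr15:101563345-101573904 in GRCm38, in the same type II keratin cluster as Krt6a (chr15:101689910-101694307) and Krt79 (chr15:101929332-101940324). Within the 95 cells, the Krt75 level ran from 10.2 to 316 per 10000, with a median of 23.0 and quartiles of 13.98 and 51.9. The highest value came from a droplet with only 2217 UMIs, and the next highest was 129. Of the cells, 55 held at least 20 per 10000, 25 at least 50 and 6 at least 100. In the PADI4 WT library the lowest, median and highest levels were 10.2, 26.6 and 316 per 10000, and in the library labelled PADI4 cKO 10.2, 21.6 and 124, so the second range lay within the first. The levels fell off gradually across the threshold, since 27 members lay between 10 and 15 per 10000 and 55 droplets outside lay between 5 and 10. The 5 lowest members held 10.2 to 10.45 per 10000 and the 5 highest droplets outside 9.11 to 9.92. The members carried 60.2% of the 9428 Krt75 UMIs in the kept droplets, and 87.5% of the other droplets had none.

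The Krt75 cells made up 0.566% (95% exact binomial interval 0.419 to 0.747) of the 8661 kept PADI4 WT droplets and 0.590% (0.433 to 0.787) of the 7792 kept droplets of the library labelled PADI4 cKO. The shares differed by less than either interval, which covers the counting of cells only. The cells held 901590 and 715064 UMIs in all, with medians of 16542 and 13398 UMIs and 4451 and 4171 genes per cell. Mitochondrial UMIs took a median of 3.89% and 3.82%, and ribosomal protein genes 18.5% and 20.2%. In the other droplets, the ribosomal medians were 21.7% and 21.9%. No member barcode occurred in both libraries, although 17 barcodes of kept droplets did.

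Padi4 itself did not separate the libraries. Over all kept droplets, it had 113 UMIs in PADI4 WT (0.859 counts scaled to a library total of 1000000 UMIs, CPM) and 95 (0.717 CPM) in the library labelled PADI4 cKO, a log2 ratio of −0.26 with an interval from −0.67 to 0.15. In a library of 3′ tags, transcripts from an allele with deleted exons may still be counted, and it was not tested which transcripts these UMIs came from. Xist without any Y-linked UMI was found in 32.7% of the Krt75 cells of PADI4 WT and in 95.7% of those labelled PADI4 cKO, beside 25.8% and 98.2% of the other droplets. Genotype, sex and library therefore cannot be told apart. Within the Krt75 cells, Padi4 had 1 UMI in PADI4 WT and 0 in the other library, where a count of 0 allows up to 4.195 CPM. Padi3, the follicular relative of Padi4, had 5 and 1 UMIs, and Padi1, Padi2 and Padi6 had 0 in both.

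The label was then held against the markers of the companion layer. Krt17 (chr11:100256217-100261029), a type I keratin of sheath and appendage cells, was found in 94 of 95 cells at 8943 and 8576 CPM (PADI4 WT first, here and in what follows), against 1696 and 1617 CPM in the other droplets. With 14195 UMIs it made up 57.2% of all keratin UMIs of the cells, while Krt75 made up 22.9%. The partners usually named beside Krt75 were found in few of the cells. Krt6a was found in 6 of 95 cells, Krt16 in 14 of 95 and Calb2 in 0 (upper limit 3.16%). Krt16 was nevertheless higher than elsewhere, with 32.2 and 22.4 CPM against 1.21 and 0.661. Krt6a had 29.9 and 182 CPM against 3.90 and 3.18, but 129 of its 130 UMIs in the library labelled PADI4 cKO lay in 1 droplet. Krt6b had 0 UMIs in these cells but also 0 CPM in the other droplets of both libraries. Its absence therefore says nothing about the Krt75 cells, and it is left out of the reading of the label. Among the other markers of the 6, only Krt75, which the rule used, and Krt17 were widespread. The droplets are therefore called by their leading gene and not by a cell type.

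Other keratins were set beside all other droplets. Krt5, the type II keratin of basal and outer root sheath cells, had 961 and 740 CPM against 1377 and 1237 in the other droplets, and was present in 92 of 95 cells. Its partner Krt14 had 303 and 220 CPM against 1200 and 810, in 45 cells. Krt15, a marker of the outer root sheath, had 228 and 40.6 CPM against 798 and 704, in 25 cells. Of the 8 outer root sheath markers, 0 were above the fold used here and 4 below it (Krt14, Krt15, Nfatc1 and Postn). Nfatc1 and Postn were among 3 compared only for their level in the other droplets. Of the 5 that also had at least 100 UMIs in the Krt75 cells, 0 were above and 2 below (Krt14 and Krt15). Over all 7051 genes compared, 4.5% were above and 7.81% below. Krt28, an inner root sheath keratin outside the rule, had 225 and 95.1 CPM against 380 and 389, past the fold in the library labelled PADI4 cKO but not in PADI4 WT (log2 ratio −0.75). Gata3, a regulator of the inner root sheath, stood at the level of the other droplets, with 203 and 161 CPM against 166 and 161. Krt80 had 118 and 78.3 CPM against 11.5 and 10.8, in 48 cells. Krt35, a cortex keratin, had 22.2 and 18.2 CPM against 190 and 172.

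Markers of cells other than epithelium were near zero. The 5 fibroblast genes summed to 2.22 and 1.40 CPM in the Krt75 cells, against 32.4 and 30.9 in the other droplets, and the red blood cell genes had 0 UMIs. The melanocyte genes Dct (2.22 and 1.40 CPM against 35.9 and 24.4) and Mitf (8.87 and 15.4 against 63.1 and 88.8) were both low. From collagen and hemoglobin UMIs, the estimate for free RNA had an upper bound of 2.51% of UMIs in PADI4 WT cells and 1.40% in the others, and 6.28% and 5.58% with 3 UMIs more.

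When all kept droplets were clustered without the 8 rule genes, cell cycle genes and sex-linked genes, 92 of the 95 Krt75 cells (96.8%) fell into 1 of 25 clusters. This cluster held 339 droplets, 1.96% of PADI4 WT and 2.17% of the other library, so the members were 27.1% of it. At a finer resolution, with 41 clusters, 92 of 340 droplets of 1 cluster were members, and at a coarser one with 15 clusters, 92 of 1468. Of the 247 droplets that shared the cluster without being members, 63.9% and 67.2% had a Krt75 UMI, beside 11.4% and 12.01% outside the cluster. Their medians were 15779 and 15877 UMIs, and those outside 14082 and 15804. Their Krt75 level was 239 and 191 CPM. The members are therefore the Krt75-rich end of a larger group, and these same-cluster droplets, a comparison chosen after their values were seen, serve as the nearest neighbors below.

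**Figure D1:**
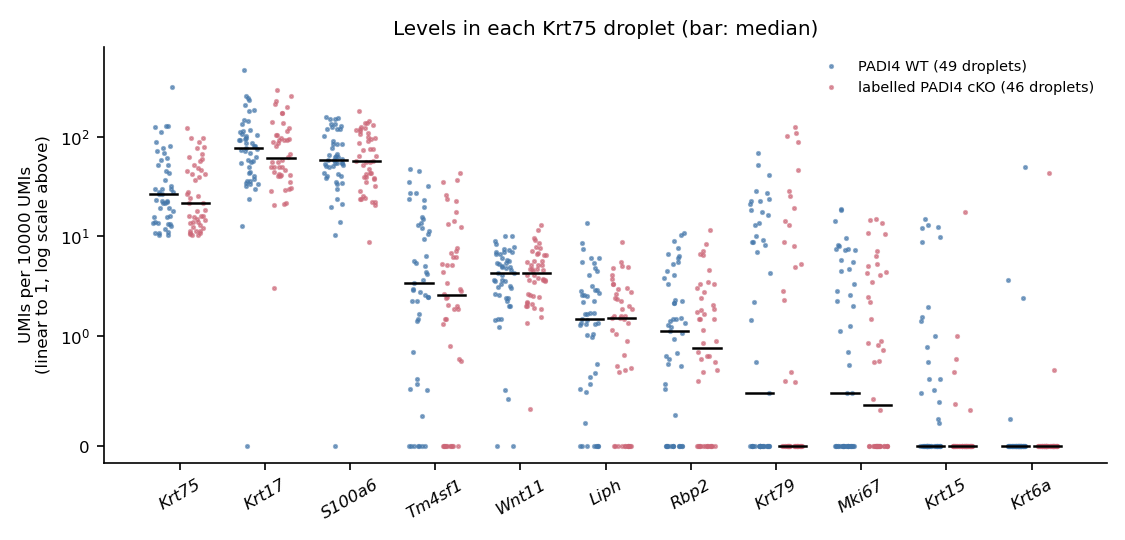
Each point is 1 Krt75 cell (49 PADI4 WT in blue, 46 labelled PADI4 cKO in red), the y axis gives UMIs per 10000 UMIs (linear to 1 and logarithmic above) for 11 genes, and bars are medians. Krt17, S100a6 and Wnt11 are found in nearly every cell of both libraries, Krt79 and Mki67 are at 0 in many cells and high in others, and Krt6a is carried by 6 cells.

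To describe what the cells express, each gene was compared as a log2 ratio of summed CPM, Krt75 cells over all other droplets, in each library. A gene counted as past the fold when the ratio was beyond 1 in size with the same sign in both. Above it lay 317 of 7051 genes (4.5%) and below it 551 (7.81%), and the median ratio over all genes was −0.10. These are descriptions, because the cells were chosen by their own counts. A gene was compared when it had at least 100 UMIs in the Krt75 cells or at least 20 CPM in the other droplets of both libraries. A gene that met only the first condition had to be low elsewhere, and one that met only the second was scarce in the Krt75 cells, so for such genes the filter favored the side. The counts over gene lists below are therefore also given for the genes that met both conditions, and they support nothing on their own.

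After Krt75, the gene with the highest ratio was Liph (chr16:21953817-21995663), a lipase that makes the signaling lipid lysophosphatidic acid and is mutated in hereditary hair loss with woolly hair. Liph had 175 and 130 UMIs, or 194 and 182 CPM, against 1.58 and 1.32 CPM in the other droplets. The log2 ratios were 6.94 (interval 6.64 to 7.23) and 7.11 (6.77 to 7.44). A UMI was found in 78.9% of Krt75 cells, 26.3% of same-cluster droplets, 1.72% of other droplets, and 0 of 44 fibroblast-like droplets, which allows up to 6.82%. The median depths of these groups were 13720, 15787, 14892 and 10408 UMIs, so depth did not run in the order of the shares. With every droplet thinned to 2000 UMIs, the shares were 31.6%, 6.07%, 0.257% and 0.

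Rbp2 (chr9:98486115-98509781), a binding protein for retinol, followed at 191 and 178 CPM against 1.72 and 1.42. It was seen in 69.5% of Krt75 cells, 32.4% of same-cluster droplets and 0 of 44 fibroblast-like ones. Wnt11 (chr7:98835112-98855195), a secreted Wnt ligand known for signaling in cell movement and polarity, had 395 and 431 CPM against 5.24 and 5.63, with ratios of 6.24 (6.05 to 6.42) and 6.26 (6.06 to 6.45). It was the most widespread of these genes, in 97.9% of Krt75 cells, 78.5% of same-cluster droplets and 4.26% of other droplets. A UMI of Wnt11 also occurred in 18.2% of the fibroblast-like droplets. Thinned, 55.8% of Krt75 cells kept one. Tm4sf1 (chr3:57285611-57301988), a tetraspan membrane protein, had 893 and 713 CPM against 18.5 and 16.5, in 81.1% of Krt75 cells but 34.0% of same-cluster droplets, and in 9.09% of the fibroblast-like ones. Liph, Rbp2, Wnt11 and Tm4sf1 were each of similar height in both libraries.

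Other genes among the 20 highest were found in many of the cells. Of the 20, only Calm4 reached 20 CPM in the other droplets of both libraries, so the filter favored the side of the rest. Sult2b1, which sulfates cholesterol, had 263 and 199 CPM against 9.89 and 9.03, in 82 of 95 cells. Nipal4, a membrane protein mutated in ichthyosis, had 63.2 and 81.1 CPM against 2.41 and 2.19. Calm4, a calmodulin-like protein of differentiating skin, had 556 and 982 CPM against 33.9 and 23.6, with ratios of 4.04 and 5.38. Lgals3, which encodes galectin-3, had 529 and 607 CPM against 31.5 and 15.4, in 91 cells. Clu, the secreted chaperone clusterin, had 244 and 242 CPM against 9.93 and 9.37. The other widespread genes of this set were Tuba8 (an alpha tubulin, 67.7 and 101 CPM against 1.13 and 1.04), Grik3 (a glutamate receptor subunit, 226 and 334 against 8.02 and 8.75), Sytl2, Bpifc, Pkp2 and Cited4, found in 49 to 81 cells. Against the same-cluster droplets, Calm4 (541 and 713 CPM there), Grik3 (187 and 211), Sytl2 (196 and 152), Sult2b1, Nipal4 and Cited4 were not past the fold. Lgals3 (229 and 239 CPM there), Clu (40.6 and 64.1), Tuba8, Bpifc and Pkp2 were above it. Sprr1a, Ly6g6c, Klk7 and Krt6a also ranked among the 20, but were carried by 11, 7, 8 and 6 of the 95 cells.

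At the low end, Slc38a4, an amino acid transporter, had 2 and 0 UMIs in the Krt75 cells, against 44.2 and 45.7 CPM elsewhere. The cadherin Cdh6 had 12 and 0 UMIs against 65.0 and 77.3 CPM, and Cdh13 had 43 and 0 against 137 and 102. Ntf3 (neurotrophin-3), Rasl11a, Ccdc3 and the Notch modifier Lfng had 7 UMIs or fewer each. The collagen gene Col14a1 had 27 and 1 UMIs against 156 and 177 CPM. Acta2 and Tagln were low as well, but the rule used them.

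**Figure D2:**
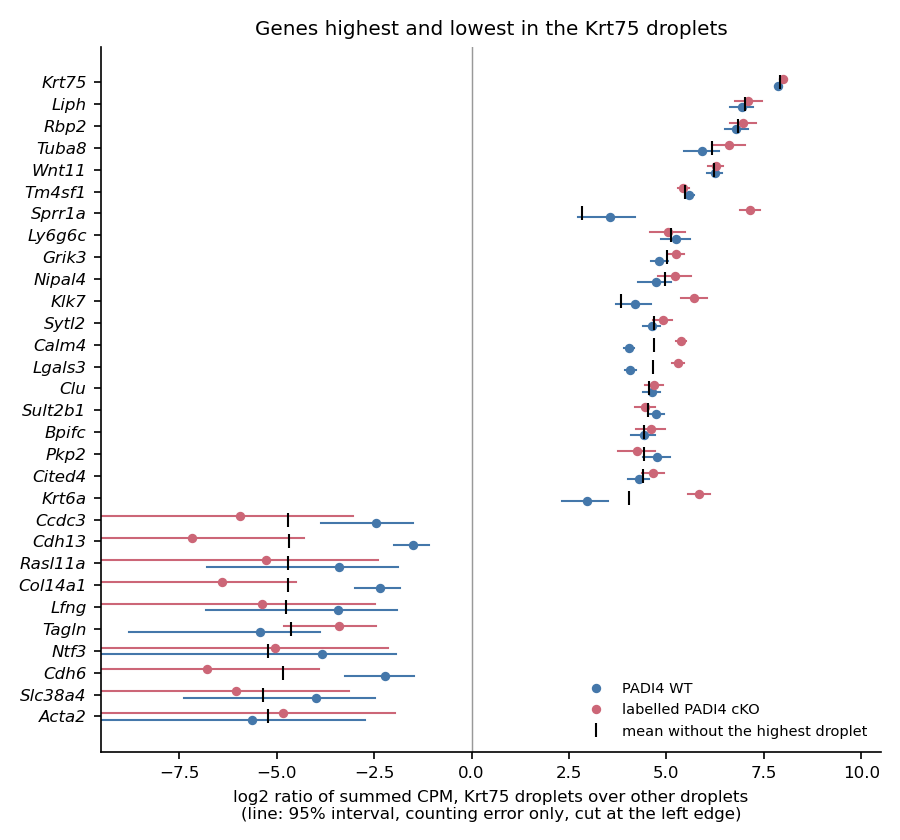
The x axis gives the log2 ratio of summed CPM, Krt75 cells over other droplets, for the 20 highest and 10 lowest genes by mean ratio, with PADI4 WT in blue, the library labelled PADI4 cKO in red, and lines for 95% intervals of the counting error. Liph, Rbp2 and Wnt11 lie above 6 in both libraries, and the black ticks, which give the mean ratio without the highest droplet, sit apart from the points for Sprr1a.

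Of the genes of desmosomes, the adhesions that anchor keratin filaments at cell borders, 8 of 10 compared were above the fold and 0 below (median log2 ratio 1.76, beside −0.10 over all genes). Of the 9 that met both conditions of the filter, 7 were above. The desmosomal cadherin Dsg1a had 342 and 315 CPM against 35.6 and 27.8, in 90 cells. The plakin Dsp had 1515 and 1536 CPM against 428 and 328, plakoglobin (Jup) 492 and 565 against 112 and 101, and Perp 2613 and 2916 against 584 and 518. Plakophilin 2 (Pkp2) had 89.8 and 60.1 CPM against 3.34 and 3.18, and Dsc3, Pkp1 and Pkp3 were also above. Dsg2 (67.7 and 89.5 CPM against 61.3 and 56.1) and Dsg3 (69.9 and 65.7 against 75.2 and 74.4) were not. Of the gap and tight junction genes, 3 of 7 were above and 1 below, and of the 4 that met both conditions 2 and 0. Gjb2, which encodes connexin 26, had 539 and 529 CPM against 93.3 and 72.4. The tight junction genes Cldn1 (226 and 162 against 42.4 and 39.7) and Ocln (74.3 and 105 against 8.69 and 6.73) were above, and Cldn10 (14.4 and 12.6 against 92.1 and 89.7) was below.

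Of 12 compared genes of the attachment to the basement membrane, 0 were above and 6 below (median −1.47). All of the 6 had under 100 UMIs in the Krt75 cells and were compared only for their level elsewhere, and of the 4 genes that met both conditions 0 were above and 0 below. Col17a1, a collagen of the hemidesmosome, had 28.8 and 13.98 CPM against 137 and 109, in 13 cells. Integrin alpha 6 (Itga6) had 55.5 and 32.2 CPM against 141 and 109. Itga3 and the laminin chains Lama3 and Lama5 were also below the fold. Plec and Cd151 had slightly higher levels than elsewhere, at 217 and 231 CPM against 141 and 125 for Plec and 85.4 and 72.7 against 54.1 and 50.5 for Cd151.

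In the Notch pathway, 5 of 9 compared genes were above the fold and 3 below. The receptors Notch1 (441 and 417 CPM against 141 and 124), Notch2 (176 and 155 against 36.1 and 34.3) and Notch3 (103 and 108 against 16.9 and 12.8) were above the fold, as were the target gene Heyl (75.4 and 78.3 against 4.87 and 5.66) and the feedback inhibitor Nrarp. The ligands Jag1 (27.7 and 5.59 CPM against 79.2 and 69.9) and Jag2 (21.1 and 1.40 against 95.6 and 89.7) and Lfng were below. Notch3 and Heyl were compared only for their counts in the Krt75 cells, and Jag1, Jag2 and Lfng only for their level elsewhere, so the filter favored their sides. Of the 4 genes that met both conditions, Notch1, Notch2 and Nrarp were above and 0 below. Of the Wnt genes, 1 of 13, Wnt11, was above and 9 were below (median −1.73), including the receptor genes Lgr5 (46.6 and 37.8 CPM against 257 and 283) and Lgr6, and the transcription factor Lef1 (125 and 169 against 437 and 450). Of the 4 Wnt genes that met both conditions, Lef1 and Tcf7l2 were below and 0 above. Of the BMP and TGF-beta genes, 0 of 15 were above and 7 below, and of the hedgehog genes 0 of 7 and 2. Among those that met both conditions, 0 of 5 BMP and TGF-beta genes were past the fold and 1 of 4 hedgehog genes, Ptch1, was below. Id1 and Id3, targets of BMP signaling, were not past the fold. Of 6 compared EGF and FGF receptor genes, Erbb2 (85.4 and 78.3 CPM against 31.3 and 27.3) was above and Fgfr1 (39.9 and 30.8 against 154 and 163) below. Of the 4 that met both conditions, Erbb2 was above and 0 below, and Fgfr1 was compared only for its level elsewhere.

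Among 23 compared transcription factors of skin lineages, 3 were above and 8 below, and of the 11 that met both conditions 2 and 1. Foxn1, the factor mutated in nude mice, had 99.8 and 129 CPM against 9.68 and 9.22, in 71 of 95 cells. Zfp750, a regulator of epidermal differentiation, had 142 and 154 CPM against 33.5 and 28.3, and Grhl1, which controls desmosomal cadherin genes, 201 and 190 against 80.7 and 74.4. Barx2 (125 and 106 against 363 and 318), Sox21 and the hair factors Hoxc13, Dlx3 and Msx2 were among those below. Trp63, which maintains basal cells, had 328 and 352 CPM against 607 and 623, short of the fold.

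Of 9 compared S100 and metallothionein genes, 3 were above the fold and 3 below, and of the 7 that met both conditions 3 and 2. S100a6 had 6449 and 6792 CPM against 768 and 795, with a lowest, median and highest level of 0, 57.8 and 158 per 10000 in PADI4 WT cells and 8.71, 56.8 and 180 in the others. S100a14 (1498 and 1438 CPM against 467 and 403) and S100a16 (1120 and 1323 against 273 and 238) were also above, whereas the metallothioneins Mt1 (390 and 215 against 1258 and 1161), Mt2 and Mt4 were below. S100a10 (359 and 271 CPM against 360 and 293), S100a11 (668 and 910 against 398 and 337) and S100a3 were not past the fold in both libraries. Of 13 cytoskeletal and membrane-binding genes, 6 were above and 0 below, all 6 among the 11 that met both conditions, led by Anxa1 (470 and 647 CPM against 124 and 110), Tuba1a and Anxa2. Of 11 proteases and inhibitors, Klk7 and the cathepsins Ctsc, Ctsd (376 and 474 CPM against 101 and 92.0) and Ctsh were above and Ctsl below. Of the 8 that met both conditions, Ctsc and Ctsd were above and Ctsl below. Klk7 and Ctsh were compared only for their counts in the Krt75 cells. Periplakin (Ppl), a scaffold of the cornified envelope, had 195 and 154 CPM against 46.01 and 36.3, and the transglutaminase Tgm5 was below, with 6.65 and 5.59 against 22.5 and 29.2. Ppl met both conditions, and Tgm5 was compared only for its level elsewhere. Of 3 compared suprabasal genes, Sbsn was above, with 234 and 262 CPM against 35.7 and 32.9, and of the 2 that met both conditions Sbsn was above and 0 below. The suprabasal keratin Krt10 (32.2 and 27.97 CPM against 65.9 and 36.4) was not past the fold in both libraries, and Krtdap (31.1 and 148 against 122.5 and 66.1) was lower than elsewhere in one library and higher in the other. The late envelope gene Flg and repetin (Rptn) had 0 UMIs. Of 9 glycolytic genes, 8 of which met both conditions, none was past the fold.

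**Figure D3:**
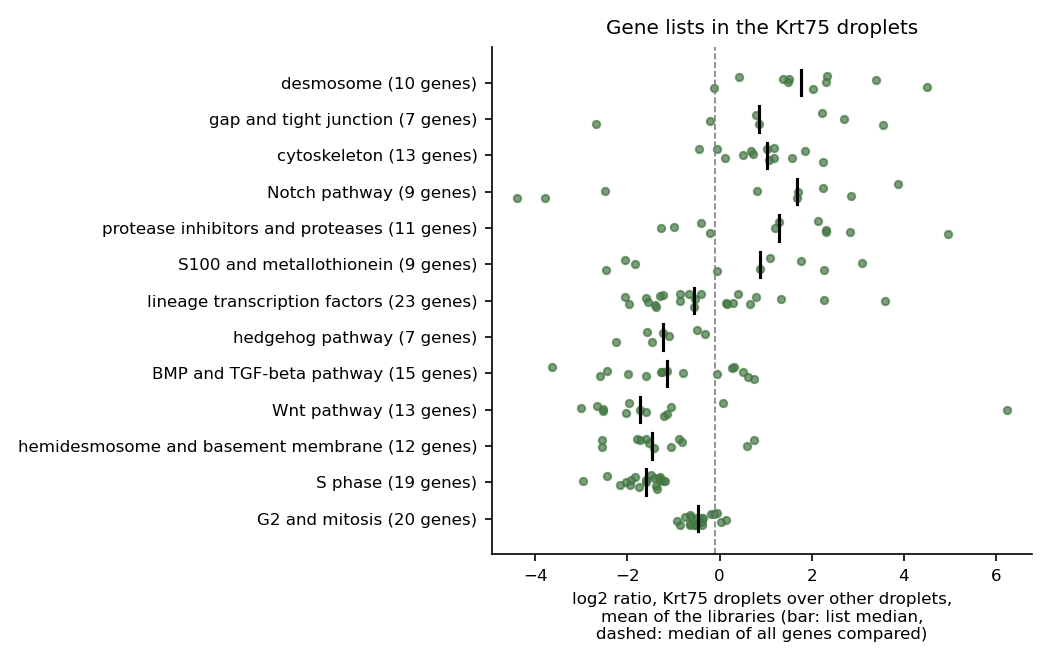
Each point is 1 gene, the x axis gives its log2 ratio of summed CPM (Krt75 cells over other droplets, mean of both libraries), bars are list medians, and the dashed line is the median over all genes compared (−0.10). The desmosome list has its median at 1.76, the hemidesmosome list at −1.47 and the S phase list at −1.60, and Wnt11 is the isolated point on the right of the Wnt pathway.

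Of 19 S phase genes, 0 were above and 13 below (median −1.60), and 18 of the 19 were compared only for their level elsewhere. Those below included Pcna (97.6 and 103 CPM against 216 and 246), which met both conditions, and Rrm2 (21.1 and 21.0 against 112 and 124). Of 20 genes of G2 and mitosis, 14 of which met both conditions, none was past the fold (median −0.47), with Mki67 at 353 and 224 CPM against 486 and 402. The inhibitor Cdkn1a had 267 and 204 CPM against 81.5 and 61.2, the only one above the fold of 7 brakes and D cyclins. It was also the only one past the fold of the 6 that met both conditions. By scores of these genes, 62 of 95 Krt75 cells (65.3%, interval 54.8 to 74.7) were called G1, 6.32% S and 28.4% G2M, against 35.7%, 34.2% and 30.1% of other droplets and 24.7%, 13.4% and 61.9% of same-cluster droplets. Thinned to 2000 UMIs, the G1 shares were 66.3%, 38.1% and 23.9%. The G1 share was 65.3% in PADI4 WT and 65.2% in the library labelled PADI4 cKO. Free RNA enters such scores too, and its part was not tested.

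The Krt75 cells were next compared with 3 similar groups. The same filter was used, with the similar group in place of the other droplets, so it again favored the side of genes scarce in either. Bmper, Tm4sf1, Frmd5 and Crym below, for example, each met only 1 of its conditions. The counts past the fold, also those against the same-cluster droplets, are descriptions and support nothing on their own. Against 232 and 160 droplets rich in inner root sheath keratins, 266 of 6551 genes (4.06%) were above the fold and 314 (4.79%) below. Bmper, a secreted BMP modulator, had 189 and 108 CPM against 0.560 and 0.362, and Tm4sf1 893 and 713 against 15.1 and 4.71. Adarb1 and Adgrg6 followed. Krt17 had 8943 and 8576 CPM against 275 and 337, and S100a6 6449 and 6792 against 357 and 379. In the other direction, Cdh6 had 13.3 and 0 CPM against 364 and 389, and Nkd2, a Wnt inhibitor, 2.22 and 1.40 against 184 and 212. Frmd5 had 0 UMIs in the Krt75 cells against 55.1 and 72.4 CPM, and Crym 0 against 55.4 and 58.3. Several features were shared with this group, since Dsg1a (342 and 315 CPM against 349 and 350), Notch3 (103 and 108 against 133 and 114) and Foxn1 (99.8 and 129 against 64.9 and 80.0) lay within the fold.

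Against 2949 and 2835 outer root sheath droplets, chosen by Krt15 and Sox9, 331 of 7075 genes (4.68%) were above and 702 (9.92%) below. Wnt11 (395 and 431 CPM against 1.55 and 0.620), Liph, Rbp2, Cited4 and the lipid transporter Mfsd2a (215 and 166 against 3.40 and 2.45) led the higher genes. Dsg1a had 342 and 315 CPM against 15.4 and 8.51, Foxn1 99.8 and 129 against 2.23 and 1.55, and Notch3 103 and 108 against 8.007 and 4.74. Slc38a4, Ntf3, Cdh13, Ccdc3 and Bdnf were the lowest, with Bdnf at 1.11 and 0 CPM against 33.7 and 39.7. Krt17 had 8943 and 8576 CPM against 2925 and 2939.

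Against 28 and 12 medulla-like droplets, a small group chosen by Krtap8-1 and Mt4, 390 of 6007 genes (6.49%) were above and 552 (9.19%) below. Ly6d had 1084 and 1006 CPM against 7.11 and 0, and Foxe1, a forkhead factor, 547 and 615 against 2.37 and 0. Csmd1 and the hair-specific cadherin Dsg4 had 0 UMIs in the Krt75 cells, against 289 and 213 CPM for Csmd1 and 80.5 and 67.4 for Dsg4.

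Against the 122 and 125 same-cluster droplets, 81 of 6602 genes (1.23%) were above and 188 (2.85%) below. Apart from Krt75 and the genes carried by few cells, the highest were Tm4sf1 (893 and 713 CPM against 64.1 and 67.5), Bmper (189 and 108 against 15.8 and 10.52), Adgrg6, Plod2 and Gjb2 (539 and 529 against 95.1 and 66.5). S100a6 had 6449 and 6792 CPM against 1506 and 1644, and Krt17 8943 and 8576 against 3188 and 3717. Foxn1 (94.7 and 113 CPM in the same-cluster droplets), Heyl (67.4 and 88.5), Perp (2545 and 2581) and Dsg1a (294 and 246) were within the fold of the Krt75 cells. Cell cycle genes were among the lowest, with Ccne2 at 3.33 and 1.40 CPM against 22.0 and 28.7.

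Within the Krt75 cells, the level of Krt75 divided the cells by other genes as well. Each library was split into tertiles by Krt75 level, a division made after the values were seen. The upper tertile held 31 cells from 42.3 to 316 per 10000, and the lower 33 cells from 10.2 to 19.1. In PADI4 WT, Tm4sf1 had 268, 459 and 2269 CPM in the lower, middle and upper tertile, and in the library labelled PADI4 cKO 83.1, 403 and 1738. Gjb2 had 205, 373 and 1207 CPM in PADI4 WT and 224, 251 and 1166 in the other library. Rbp2 (108, 109 and 398, then 70.7, 67.8 and 416) and Clu (103, 207 and 492, then 91.4, 160 and 496) were also highest in the upper tertile of both libraries, along with Bmper and Bpifc. Wnt11 (253, 429 and 570, then 274, 359 and 679), Liph (86.9, 181 and 367, then 99.8, 164 and 290) and S100a6 (4248, 5324 and 10880, then 4069, 5944 and 10670) were higher in each next tertile of both libraries. Krt17 had 6488, 6623 and 14992 CPM, then 7802, 6395 and 11850, so it was highest in the upper tertile of each library as well. Foxn1 (97.4, 79.1 and 125, then 137, 128 and 121) showed no such order.

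Mitotic genes were lowest in the upper tertile of both libraries, though Mki67 fell at each step only in the library labelled PADI4 cKO. Mki67 had 458, 538 and 3.91 CPM in PADI4 WT and 549, 91.8 and 22.3 in the library labelled PADI4 cKO. Cenpe, Birc5, Ccnb2 and Nusap1 had 0 UMIs in the upper tertile of both libraries. By phase, 17 of 33 cells of the lower, 10 of 31 of the middle and 0 of 31 of the upper tertile were called G2M, and 12, 20 and 30 were called G1. The median depths of the tertiles were 14072, 13444 and 13805 UMIs over both libraries. In PADI4 WT they were 19388, 13264 and 15175 UMIs, and in the other library 13221, 13646 and 13720. Most UMIs of the PADI4 WT lower tertile lay in cells of the subgroup of 17 described below, which includes all called doublets. The summed levels of that tertile therefore rest largely on this subgroup. All 7 droplets called as doublets were in the lower and middle tertiles.

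**Figure D4:**
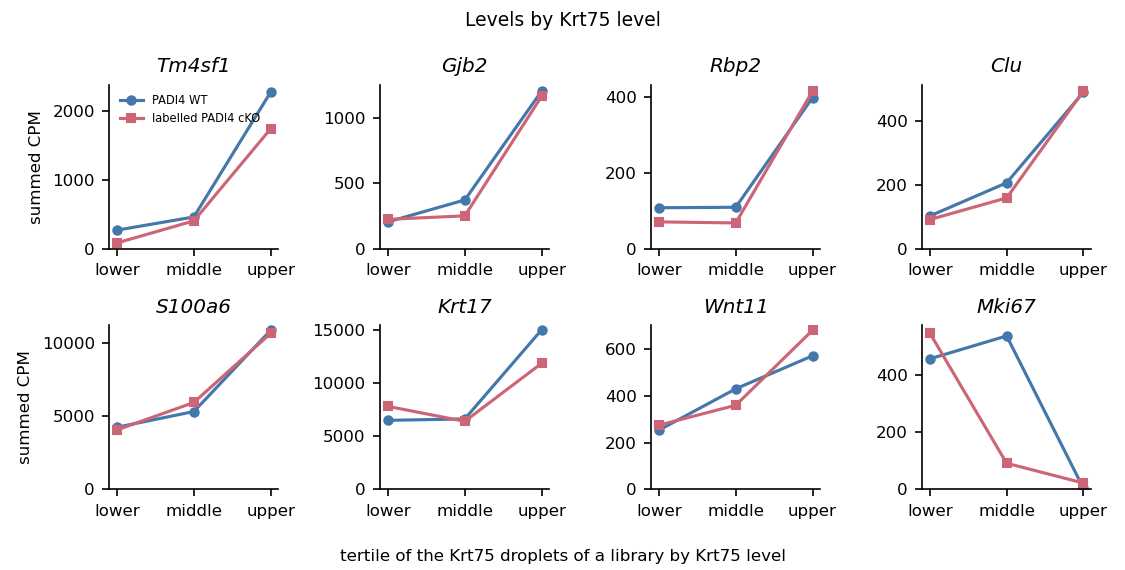
Each panel gives 1 gene, with the tertile of Krt75 level within a library on the x axis and summed CPM on the y axis, for PADI4 WT (blue circles) and the library labelled PADI4 cKO (red squares). Tm4sf1, Gjb2, Rbp2 and Clu are highest in the upper tertile of both libraries, where Mki67 is at 3.91 and 22.3 CPM.

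Krt79, a keratin of the upper follicle, split the cells at like levels of Krt75. It had 1064 and 1319 CPM against 143 and 118 in the other droplets, but 51 of the 95 cells had no UMI of it and 33 held at least 5 per 10000, a level chosen after the values were seen. The 33 cells with Krt79 (20 PADI4 WT and 13 labelled PADI4 cKO) had a median Krt75 level of 22.7 per 10000 and the 51 without it 22.0. Krt17 had 11661 and 14841 CPM in cells with Krt79 and 5993 and 6266 in those without. The adhesion genes Alcam (2351 and 2114 CPM against 414 and 397) and Nectin3 (479 and 433 against 55.3 and 36.7) and the transcription factor Sox9 (253 and 366 against 74.6 and 41.3) were also higher with Krt79. All 8 carriers of the protease gene Klk7 were cells with Krt79. Fabp5, a fatty acid binding protein, was lower (626 and 505 CPM against 1368 and 1479). Wnt11 was alike at 412 and 399 CPM against 348 and 431.

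Clustering of the 95 cells without the rule and cell cycle genes gave 7 subgroups of 8 to 18 cells, each with cells of both libraries. In a subgroup of 11 cells (7 and 4), the median Krt75 level was 111 per 10000, Krt17 reached 19909 CPM, Tm4sf1 3226 CPM and Rbp2 616 CPM, Mki67 had 0 UMIs, and Areg, Ccn2 and Ly6d were among the leading genes. A subgroup of 9 cells was led by Krtdap, Krt79, Fos, Nebl and Sox9, with 4807 CPM of Krt79 and 12788 CPM of Krt17. Another 14 cells and 8 cells were led by mitotic genes, with Mki67 at 980 and 752 CPM.

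One subgroup stood apart by its quality. Its 17 cells, 13 of PADI4 WT and 4 of the other library, had a median of 29647 UMIs and a median Krt75 level of 15.9 per 10000, and included all 7 called doublets. Krt14 had 778 CPM there, Krt15 447 CPM (in 11 of 17 cells), Kitl 317 CPM and Pdgfa 266 CPM, whereas in the other 6 subgroups Krt15 had at most 21.5 CPM and Pdgfa at most 8.68 CPM. The subgroup held 42.9% of the UMIs of the PADI4 WT Krt75 cells and 14.7% of those of the other library, so it weighed on the libraries unequally. Whether these are mixed droplets was not tested beyond the doublet calls.

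Finally, the libraries were compared within the Krt75 cells, with a log2 ratio beyond 0.5 as the fold. Of 3056 genes with at least 100 UMIs, 97 (3.17%) were higher in the library labelled PADI4 cKO and 158 (5.17%) lower, with a median ratio of −0.02. Over the other droplets, which hold far more UMIs, the same genes gave 5 (0.164%) and 9 (0.295%). The genes past the fold in both were 4 higher ones (Xist, Gm10260, Rpl26 and Gm47283, the last named after its values were seen) and 0 lower ones. Gm10260, a predicted gene that could share reads with a near-identical copy, had 13 and 115 UMIs, a ratio of 3.43 in the Krt75 cells and 3.56 in the other droplets. Rpl26 had 1419 and 2361 CPM, with ratios of 0.73 and 0.70. Xist moved with the share of Xist-only cells in the libraries, given above.

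Several of the highest ratios rested on 1 droplet, whereas Gm10260 (3.16 without the subgroup of 17 cells) and Krtdap did not. Cst6, a cystatin, had 30 and 614 UMIs (log2 ratio 4.67), but 582 of the 614 were in 1 droplet. The same droplet held 216 of the 222 Sprr1a UMIs of its library, 129 of 130 Krt6a UMIs, 77 of 96 for Klk7, 251 of 331 for Cstb and 50 of 52 for Ly6g6c, and 299 of 943 for Krt79. It had 29647 UMIs, a Krt75 level of 10.8 per 10000 just over the threshold, and 7.85% ribosomal UMIs, below the 5th percentile of all droplets (11.5%), and was not called a doublet. This droplet belonged to the subgroup of 17 cells. Without the droplet with the highest level of each gene, the ratio of Cst6 was 0.49, of Sprr1a −1.11, of Cstb −0.46 and of Klk7 −0.89. Krtdap, a keratinocyte differentiation protein, had 28 and 106 UMIs with a ratio of 2.24, which was 1.94 without its highest droplet and 3.05 without the subgroup of 17 cells, while in the other droplets it was −0.89. It was found in 9 PADI4 WT cells and 14 cells of the other library.

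For the lowest ratios, most PADI4 WT UMIs lay in the subgroup of 17 cells. Csgalnact1 (102 and 8 UMIs, log2 ratio −3.26), Kitl (157 and 14, −3.11), Lmo1 (91 and 10, −2.79), Krt15 (206 and 29, −2.47) and Pdgfa (119 and 17, −2.44) were the lowest. The subgroup held 68.8% of the PADI4 WT UMIs of Rbms3 and 91.6% to 98.9% for the other 9 of the 10 lowest genes. With it, 97 genes were higher and 158 lower among 3056 genes. Without it, 46 were higher and 114 lower among 2101 genes, so lower genes past the fold remained. The ratio of Csgalnact1 was then −2.01 (−5.52 to 0.08) and of Kitl −1.60 (−3.81 to 0.05), still low but on few UMIs. The ratio of Lmo1 was 0.67 (−1.15 to 2.94), of Pdgfa −0.73 (−4.41 to 2.30) and of Krt15 −1.18 (−3.14 to 0.44), and all 5 intervals included 0. Rbms3 had −1.59 (−2.41 to −0.86) without the subgroup but −0.37 in droplets with Xist and no Y-linked UMI.

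Of the 20 genes with the highest ratios over the other droplets, Krt75 included, 6 were higher in the library labelled PADI4 cKO and 1 lower. Tuba8 (67.7 and 101 CPM), Grik3 (226 and 334) and Calm4 (556 and 982) were higher, as were Sprr1a, Klk7 and Krt6a, whose UMIs in that library lay mostly in 1 droplet, and Pkp2 (89.8 and 60.1) was lower. The log2 ratios of Tuba8 (0.57), Grik3 (0.56) and Pkp2 (−0.57) were only just past the fold. The highest Tuba8 droplet lay in the library labelled PADI4 cKO and held 9 of the 72 Tuba8 UMIs there. Without it, the ratio of Tuba8 over the other droplets was 6.45 in that library, beside 6.60 with it. In PADI4 WT this ratio stayed at 5.92. The ratio of Tuba8 between the libraries is therefore lower without that droplet and falls short of the fold. Wnt11 (395 and 431 CPM), Liph (194 and 182), Rbp2 (191 and 178), Krt17 (8943 and 8576), S100a6 (6449 and 6792), Notch1 (441 and 417) and Dsp (1515 and 1536) were within the fold. With 664 UMIs of Wnt11 and 305 of Liph in all, the counting intervals cannot exclude differences smaller than those they span, and the spread between animals is not known.

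**Figure D5:**
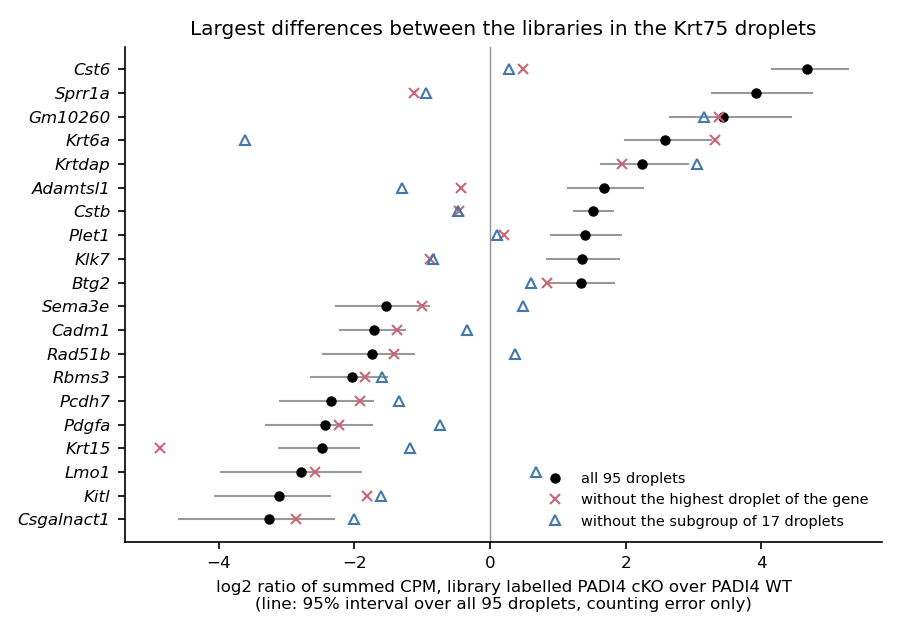
The x axis gives the log2 ratio of summed CPM, library labelled PADI4 cKO over PADI4 WT, in the Krt75 cells for the 10 highest and 10 lowest genes by this ratio, with lines for 95% intervals of the counting error. Crosses leave out the highest droplet of each gene and triangles the subgroup of 17 cells, and for Cst6 they lie at 0.49 and 0.29 beside a ratio of 4.67 over all 95 cells. The highest Cst6 droplet is in that subgroup, so both leave it out.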

How the data were processed

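The authors deposited raw UMI counts per gene and droplet barcode (32285 genes, 2 libraries, 143938990 and 143945294 UMIs in all), made per the file headers with Cell Ranger 7.1.0. The submitters' processing notes name mm10, and the annotation release and the counting of introns are not given in the sources used here. Gene positions come from GENCODE on GRCm38. Whether counting reads by strand was set is likewise not stated.

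Droplets with 2000 to 60000 UMIs, 1000 to 8000 genes and at most 20% mitochondrial UMIs were kept, without the hemoglobin and ribosomal limits of the study. Counts were summed over droplets per library and scaled to CPM, with 0.5 UMI added to each sum for ratios. Compared genes had at least 100 UMIs in the Krt75 cells or 20 CPM in the other droplets, or in the group compared with, of both libraries. Intervals are exact (95% binomial for shares, conditional binomial for ratios) and cover counting error only. For a count of 0 the limit is 3 counts. No p-values were computed. Clustering (Scanpy 1.11.5, leidenalg 0.10.2) used 1000 variable genes, 50 components, 15 neighbors and resolution 1.0, or 10 components and 10 neighbors within the Krt75 cells. Scrublet scores were computed in each library. On PADI4 WT its own cutoff marked 0.023% of droplets and had not worked, so, once this was known, 0.205 (the cutoff of the library labelled PADI4 cKO) was applied throughout. It marked 301 and 307 droplets as doublets, which were kept. Python 3.11.15, NumPy 2.4.6, SciPy 1.17.1, pandas 2.3.3 and matplotlib 3.10.9 were used. Scripts were tested on simulated data.

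The inner root sheath group held at least 20 per 10000 of the 4 rule keratins, the outer root sheath group at least 5 per 10000 of Krt15 and a Sox9 UMI, the medulla-like group at least 5 per 10000 of Krtap8-1 and of Mt4, and the fibroblast-like group, chosen after seeing the data, at least 10 per 10000 of 3 collagen genes. Named genes are the 20 highest and 10 lowest ratios, the 10 highest and 5 lowest against each similar group, the 10 highest and lowest between the libraries, leading genes of subgroups, Padi genes, and members of the lists that answer a statement. Genes named for the division by Krt75 level or by Krt79 were chosen after their values were seen. The rule, the lists and the named genes were chosen with earlier results of these data known.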

Additional observations from a re-analysis of the deposited data

Results flagged for a closer look

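In 2 genes, the Krt75 cells differed from the other droplets in opposite directions in the libraries, and the difference between the libraries was not tested. Krtdap had a log2 ratio of −1.95 in PADI4 WT and 1.17 in the library labelled PADI4 cKO. Ube2c, a mitotic gene, had −0.40 and 0.30.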

How the results depend on the processing

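No paired analysis was possible because each genotype has 1 library. Under 22 alternatives, 217 counts and shares stayed within 1.5 times or within their interval and 42 moved. The 2 alternatives without each gene's highest droplet and without the subgroup of 17 cells were chosen after seeing the data. With Krt75 at 5 per 10000, the shares of droplets were 0.924% and 0.860%, 206 genes were below against the inner root sheath group and 336 lower between libraries, and the member ratios of Krtdap (0.067), Atf3 (0.61), Ccnb1 (0.049), Birc5 (0.055) and Nusap1 (0.037) changed sign. With Krt75 at 20, the shares were 0.358% and 0.308%, 480 genes were below against the inner root sheath group, 49 higher between libraries, the G1 share 81.8% and the share in 1 cluster 100%, and the ratios between libraries of Sprr1a (−1.10), Krt6a (−3.74), Adamtsl1 (−1.81), Cstb (−0.45) and Klk7 (−0.75) changed sign. Thinning to 2000 UMIs gave 564 and 605 genes between libraries, and changed the sign of Msx2 (0.025), Jund (−0.058), Ccna2 (0.055) and, between libraries, Krt6a (−0.029), which was −0.24 as a mean per droplet. Counts followed the minimum of UMIs by construction. With a minimum of 50, 433 genes were above against the inner root sheath and 602 against the medulla-like group, and 298 and 528 between libraries. With 500, the pairs above and below were 84 and 162 (other droplets), 66 and 125 (inner root sheath), 84 and 233 (outer root sheath), 98 and 230 (medulla-like) and 7 and 6 (libraries), and with 1 they were 1927 and 1233, 2129 and 618, 1877 and 1533, 1037 and 1391, and 2544 and 3958. In Xist-only droplets, 84 genes were lower between libraries, the member ratio of Krtdap was 0.79, and Pcdh7 (2.56), Rad51b (1.88), Cadm1 (0.86) and Sema3e (1.94) changed sign between libraries. With the study's filters the signs of Sprr1a (−1.10), Krt6a (−3.79), Cstb (−0.45) and Klk7 (−0.87) changed, without called doublets that of Sema3e (0.55), and without the highest droplet those of Sprr1a (−1.11), Adamtsl1 (−0.42), Cstb (−0.46) and Klk7 (−0.89). Without the subgroup, the PADI4 WT share was 0.416%, 876 genes were below against other droplets and 479 against the inner root sheath group, 46 higher between libraries, 100% of members in 1 cluster, and Sprr1a (−0.94), Krt6a (−3.61), Adamtsl1 (−1.29), Cstb (−0.47), Klk7 (−0.84), Lmo1 (0.67), Rad51b (0.36) and Sema3e (0.49) changed sign. The droplet with most Cst6 UMIs also held most Sprr1a, Krt6a, Cstb and Klk7 UMIs of its library. It falls out with Krt75 at 20, with the study's filters and without the subgroup. For these genes those settings are therefore not separate checks. The cause of the other changes was not tested.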
